A study of Mus musculus with 30 samples.

Results

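Glycolytic isozymes are alternative gene products that catalyse the same step of glucose breakdown. The 9 genes Aldoa, Aldoc, Eno1, Eno2, Eno3, Ldha, Ldhb, Pkm and Pklr were followed here, chosen by symbol, and all 9 were found among the 48709 genes of each count table. They belong to 4 enzymes. RNA-seq counts were available for brain, kidney, liver, muscle (quadriceps femoris) and spleen of adult C57BL/6 mice. Each tissue had 3 libraries of the control genotype (WT) and 3 of Ctcf haploinsufficient mice (Ctcf+/-, called heterozygous below), which makes 30 libraries. The series describes 3 mice of each genotype, but the labels do not tie a library number to a mouse, and the fits treat tissues as independent. The p-values therefore measure the spread between these libraries. The design asks how much losing a copy of Ctcf, which encodes a DNA-binding organiser of chromatin loops, changes the transcripts of each tissue.

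Aldolase splits fructose 1,6-bisphosphate, enolase makes phosphoenolpyruvate, pyruvate kinase turns that into pyruvate with a gain of ATP, and lactate dehydrogenase interconverts pyruvate and lactate. Mammals keep several genes for each of these steps, and tissues differ in which they use: A-type forms are typical of muscle and of cells with rapid glycolysis, while other forms are typical of brain, liver or heart. Lactate dehydrogenase is assembled from the Ldha and Ldhb subunits, and a higher Ldhb content is typical of tissues that oxidise lactate. The Pklr gene has an upstream start used in red cell precursors and a downstream start used in liver.

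Libraries held 49.8 M to 131.6 M counted fragments, with a median of 85.9 M. Levels below are fragment CPM values, scaled between libraries by TMM (a factor that evens out composition) and divided by exon length in kilobases, so that genes can be compared with each other. "Level" always means this scale, given as mean ± SD (n = 3), and a fold change is on the log2 scale from the fitted counts. Ctcf, the check of the genotype labels, was lower in every heterozygous library than in every WT library in 5 of 5 tissues. Its log2 fold changes were -0.70 to -0.57. By edgeR it reached an adjusted p under 0.05 in 1 of these 5 tissues, brain (adjusted p = 0.0259). Elsewhere the adjusted p ran from 0.107 (kidney) to 0.914 (spleen). Markers of neurons, hepatocytes, kidney tubule, skeletal muscle and B cells were highest in brain, liver, kidney, muscle and spleen. The summed level of 5 neuron markers was 698 to 811 in brain and at most 10.2 elsewhere, and that of 5 hepatocyte markers was at least 107000 in liver and at most 685 elsewhere. That of 5 kidney tubule markers was at least 14600 in kidney and at most 116 elsewhere, that of 5 skeletal muscle markers at least 62300 in muscle and at most 43.0 elsewhere, and that of 5 B cell markers at least 981 in spleen and at most 9.14 elsewhere. Other lists were less specific. Astrocyte markers summed to a mean of 495 in WT liver and 291 in WT brain, with Aldh1l1 alone at 389, 384 and 681 in WT liver. Macrophage markers summed to a mean of 171 in WT liver and 108 in WT spleen. In bulk tissue, fewer cells of a type and less RNA per cell cannot be told apart.

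Promoters of Ldha, Ldhb and Pklr are shown, from enzymes whose leading gene changed from tissue to tissue. That of enolase changed too, but windows of the enolase genes and of Pkm are not shown. The sequences are from RefSeq on GRCm38.p6, in the direction of transcription, and all 9 isozyme genes had such an entry, with 17 start sites in all. Each window covers the 250 bases before a start site, shortened where an annotated exon of the gene begins. Capitals mark the letters ACGTG on either strand (the core of the hypoxia response element, overlapping where the palindrome CACGTG holds it on both strands), AGATAAG (a motif of erythroid factors) or a carbohydrate-response-like pattern (E-box-like letters repeated at a fixed spacing). The Ldha window at chr7:46845554-46845803 (plus strand), the upstream of its 2 windows, lies within the annotated span of the gene and holds no exon base. The Ldhb window at chr6:142507958-142508207 (minus strand) ends at the start of the gene. The upstream Pklr window is chr3:89135892-89136141 and the downstream one is chr3:89136373-89136571, both on the plus strand, the latter inside the gene between alternative leading exons.
Ldha: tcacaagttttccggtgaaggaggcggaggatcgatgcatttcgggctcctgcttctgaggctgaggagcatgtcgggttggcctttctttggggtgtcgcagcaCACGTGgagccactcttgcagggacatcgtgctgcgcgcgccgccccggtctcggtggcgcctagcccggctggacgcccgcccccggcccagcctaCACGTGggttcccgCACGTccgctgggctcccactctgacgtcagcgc
Ldhb: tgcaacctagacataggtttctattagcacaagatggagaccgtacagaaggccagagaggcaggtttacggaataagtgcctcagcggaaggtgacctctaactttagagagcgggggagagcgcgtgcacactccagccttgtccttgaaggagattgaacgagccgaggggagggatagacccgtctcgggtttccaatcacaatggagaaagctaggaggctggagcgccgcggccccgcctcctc
Pklr, upstream start: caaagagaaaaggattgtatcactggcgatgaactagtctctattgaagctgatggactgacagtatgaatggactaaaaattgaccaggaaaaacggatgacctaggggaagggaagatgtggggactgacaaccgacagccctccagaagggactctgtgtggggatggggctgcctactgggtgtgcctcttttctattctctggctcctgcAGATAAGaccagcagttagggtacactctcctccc
Pklr, downstream start: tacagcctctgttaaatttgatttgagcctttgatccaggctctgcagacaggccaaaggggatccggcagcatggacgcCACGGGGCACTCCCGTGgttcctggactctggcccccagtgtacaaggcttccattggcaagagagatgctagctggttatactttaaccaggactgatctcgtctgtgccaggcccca

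The Ldha window shown held ACGTG in 3 places, 2 of them as CACGTG. The downstream Ldha window, chr7:46846832-46847081, which is not shown, held none, and neither did the Ldhb window. These letters were found in 16.6% of the 32851 windows of all genes and in 4 of the 17 windows of the isozyme genes, which belong to Aldoa, Ldha and Pkm. The Aldoa windows with a match, chr7:126799179-126799428 and chr7:126799255-126799504, overlap and hold the same site. The upstream Pklr window held AGATAAG, 28 bases before the start site, which 2.74% of all windows hold. The downstream Pklr window held the carbohydrate-response-like pattern, searched on both strands, which 13 of all windows (0.0396%) hold. A match describes the letters only.

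Aldolase A was the muscle form by a wide margin. Aldoa (ENSMUSG00000030695, chr7:126795234-126809108, minus strand) had levels of 8570, 8990 and 10400 in the WT muscle libraries and of 337, 397 and 387 in WT brain. Muscle therefore stood 24.9 times above brain, the next tissue, with no overlap (log2 fold change of brain over muscle -4.74, SE 0.27, edgeR adjusted p = 1.12e-09). Kidney followed at 204 ± 18.5, spleen at 58.0 ± 14.5 and liver at 36.9 ± 0.719, and all 10 pairs of tissues were called different. The call between spleen and liver rested on single libraries: the adjusted p rose to 0.0639 without liver WT replicate 3 and to 0.0837 without spleen WT replicate 1.

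Aldolase C was a brain form. Aldoc (ENSMUSG00000017390, chr11:78322968-78327781, plus strand), which is typical of neurons and astrocytes, had levels of 268, 252 and 283 in WT brain. The kidney mean of 6.71 ± 0.9 was lower by a factor of 39.9, and the brain libraries lay above every other library. Kidney and liver (6.48 ± 2.94) overlapped and were not called different (adjusted p = 0.834). Spleen had a level of 1.04 ± 0.264 and muscle of 0.167 ± 0.0383, the latter from 23 to 42 fragments per library.

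Enolase had a form for each of brain and muscle beside a widespread one. Eno1 (ENSMUSG00000063524, chr4:150236721-150248879, plus strand), the widespread form, varied least between tissues: it had mean levels of 141 ± 19.4 in kidney, 136 ± 21 in liver and 114 ± 8.90 in brain, and no pair of these was called different. Spleen (48.6 ± 11.9) and muscle (28.4 ± 1.41) were lower. Of the 75-base windows of its main transcript, 65.4% also occur in transcripts of other genes, mostly Eno1b, so its counts are uncertain.

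Eno2 (ENSMUSG00000004267, chr6:124760053-124769673, minus strand), known as neuron-specific enolase, had levels of 152, 172 and 164 in WT brain. Outside brain its highest WT library was 1.41, in liver replicate 3, while the other 2 WT liver libraries were at 0.0734 and 0.110. Brain stood 307 times above the liver mean (log2 fold change 8.34, SE 0.85, adjusted p = 4.89e-07), and the difference was 10.83 in log2 without liver WT replicate 3. Eno2 was the member with the fewest called pairs, 5 of 10, and none of the pairs of kidney, liver and spleen was called. Liver was called above muscle (log2 fold change 1.80, adjusted p = 0.0463), a direction that turned without liver WT replicate 3 (-0.68).

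Eno3 (ENSMUSG00000060600, chr11:70657202-70662513, plus strand), the muscle enolase, had levels of 8340, 7190 and 8280 in WT muscle. Spleen was next at 20, 13.2 and 15.1, which is lower by a factor of 494 on the means (log2 fold change of muscle over spleen 9.10, SE 0.40, adjusted p = 4.05e-11). Spleen in turn stood above kidney (5.88 ± 2.66) without overlap (log2 fold change of kidney over spleen -1.43, SE 0.29, adjusted p = 0.000383). Liver (2.91 ± 0.180) and brain (2.54 ± 0.403) overlapped.

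**Figure D1:**
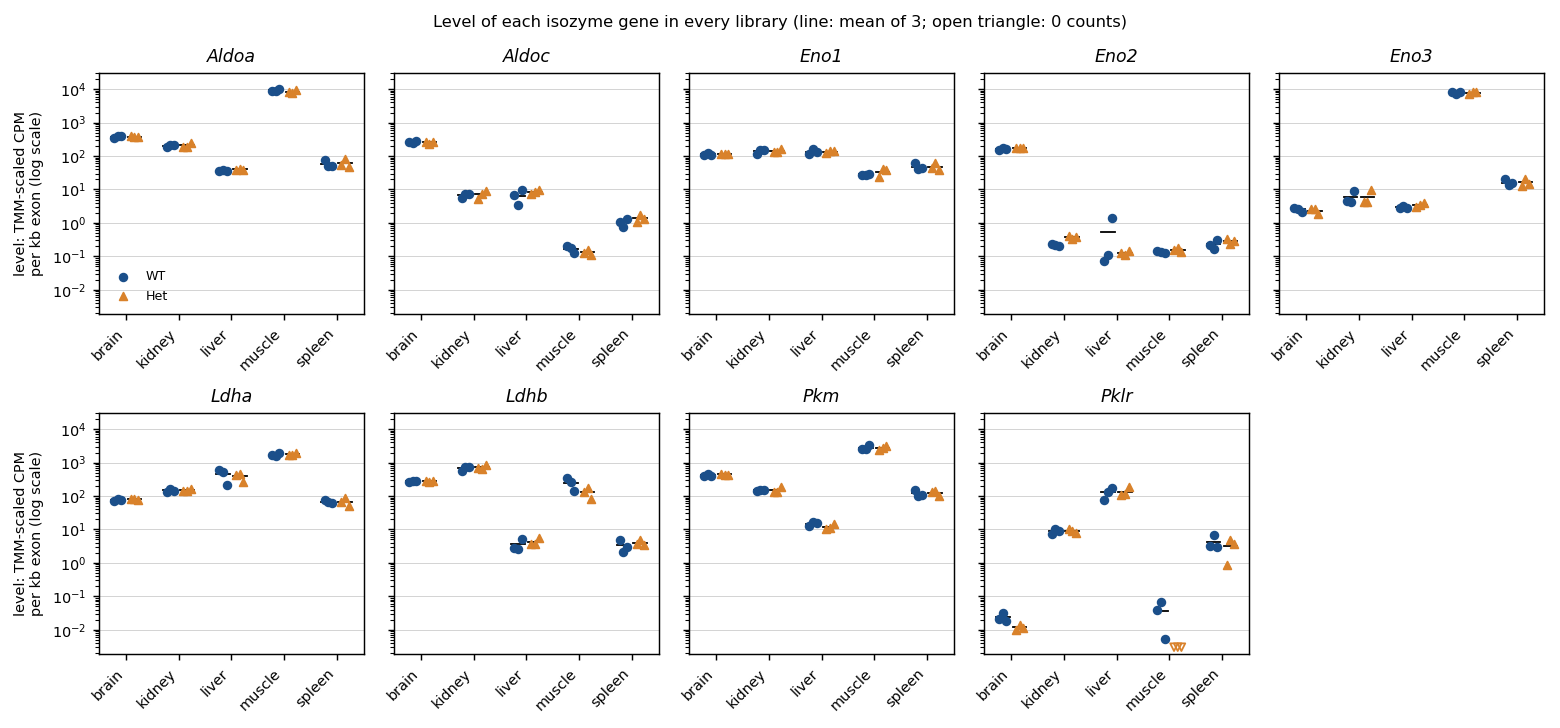
Level of the 9 isozyme genes (vertical axis, TMM-scaled CPM per kilobase of exon, log scale) in each of 30 libraries, by tissue; circles are WT, triangles are heterozygous, lines are means of 3, and open triangles at the lower edge are libraries with 0 counts. Aldoa, Eno3, Ldha and Pkm peak in muscle, Aldoc and Eno2 in brain, Ldhb in kidney and Pklr in liver, while Eno1 differs least.

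The lactate dehydrogenase subunits divided the tissues differently. Ldha (ENSMUSG00000063229, chr7:46841475-46855627, plus strand), the subunit typical of lactate-producing tissues, had levels of 1640, 1570 and 1980 in WT muscle and of 582, 537 and 219 in WT liver. Muscle was higher than liver without overlap (log2 fold change of liver over muscle -2.09, SE 0.30, adjusted p = 2.47e-05). Kidney followed at 147 ± 11.7, while brain (77.4 ± 5.45) and spleen (67.7 ± 9.42) overlapped (adjusted p = 0.461).

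Ldhb (ENSMUSG00000030246, chr6:142490249-142507957, minus strand), the subunit typical of heart, had levels of 574, 726 and 752 in WT kidney. Brain was lower at 270, 284 and 280 (log2 fold change of brain over kidney -1.28, SE 0.34, adjusted p = 0.00391). Muscle overlapped with brain and was the most spread, at 335, 266 and 137. Liver (3.58 ± 1.5) and spleen (3.33 ± 1.44) held the lowest levels, 68.7 times below muscle in the case of liver, and did not differ from each other beyond their spread (adjusted p = 0.837). Of its 75-base transcript windows 16.7% also occur in a near copy, Gm5514.

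Pyruvate kinase separated liver from all other tissues. Pkm (ENSMUSG00000032294, chr9:59656368-59679375, plus strand), whose transcripts encode the M1 and M2 forms that gene counts do not tell apart, had levels of 2510, 2510 and 3240 in WT muscle and of 402, 454 and 390 in WT brain. Kidney (148 ± 9.04) and spleen (119 ± 26.7) overlapped (adjusted p = 0.143, and 0.0252 without spleen WT replicate 1). Liver was lowest at 12.5, 16.6 and 15.5, and spleen was higher than liver by a factor of 8 (log2 fold change of liver over spleen -3.00, SE 0.22, adjusted p = 1.09e-08). Of the 75-base windows of the main Pkm transcript, 19.6% also occur in transcripts of other genes, mostly Gm6560.

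Pklr (ENSMUSG00000041237, chr3:89136142-89146784, plus strand) had levels of 77.8, 134 and 177 in WT liver. Kidney was next at 7.44, 10.5 and 8.97 (log2 fold change of kidney over liver -3.81, SE 0.39, adjusted p = 9.61e-07). Spleen had levels of 3.22, 6.70 and 2.91, and kidney was higher than spleen without overlap (adjusted p = 0.0107). Brain held 4 to 10 fragments per WT library and muscle 1 to 14, so there Pklr was close to the detection floor of 3 fragments. Of the exonic bases of Pklr, 711 of 3236 overlap Hcn3 on the opposite strand. If the counting ignored the strand, fragments there went to neither gene, while the level divides by all 3236 bases.

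Over the 10 pairs of tissues, 75 of 90 member tests were called at an adjusted p under 0.05. The members called were 8 of 9 between brain and kidney, where 71.4% of the 22933 genes tested were called, and 7 of 9 between brain and liver (73.2% of all genes). They were 7 of 9 between brain and muscle (72.3%), 8 of 9 between brain and spleen (79.8%) and 6 of 9 between kidney and liver (54.1%). The rest were 8 of 9 between kidney and muscle (64.4%), 7 of 9 between kidney and spleen (75.5%), 9 of 9 between liver and muscle (64.2%), 7 of 9 between liver and spleen (72.9%) and 8 of 9 between muscle and spleen (75.2%). With 9 members, such counts are read against the large share of all genes called. The means of the highest and the lowest WT tissue differed least for Eno1, 4.95-fold, and most for Pklr, 5540-fold, whose lowest tissue was close to the detection floor. They differed 252-fold for Aldoa and 3120-fold for Eno3. Scaling by total counts in place of TMM moved the median of all genes by 0.99 to 1.32 in log2 wherever liver or muscle was compared with brain, kidney or spleen, and by at most 0.10 in the other pairs. It raised the share of called genes that were higher in brain than in liver from 54.5% to 76.8%. Under that scaling Eno1 (log2 fold change 0.89) and Eno3 (0.95) were higher in brain than in liver, whereas with TMM both were lower there, by log2 fold changes of -0.22 and -0.15 that were not called.

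Shares within an enzyme do not depend on scaling between libraries. Of the summed level of Aldoa and Aldoc, which is not the whole of aldolase, WT brain held 58.2% ± 2.74 Aldoa and 41.8% ± 2.74 Aldoc. Aldoc made up 14.7% ± 5.95 of this sum in liver, 3.18% ± 0.146 in kidney, 1.81% ± 0.593 in spleen and 0.00183% ± 0.000573 in muscle. These shares moved with the length used: with the length of the main transcript of each gene, in place of all exonic bases, Aldoc made up 25.3% ± 2.12 in brain and 7.58% ± 3.28 in liver. The pair was closest to equal in brain with either length.

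Enolase was split in brain between Eno2 (58.3% ± 0.896) and Eno1 (40.8% ± 0.801). This order, too, depended on the length: with the main transcript, Eno1 led with 52.1% and Eno2 had 47.4%. Spleen held 74.8% ± 0.733 Eno1 and 24.9% ± 0.612 Eno3, with Eno3 at 24.3%, 24.8% and 25.5% in the 3 WT libraries. The Eno3 share of spleen was 12.2% with the length of the main transcript and 9.67% from counts with no length scaling. Eno1 made up 95.9% ± 1.41 in kidney and 97.5% ± 0.476 in liver, and Eno3 99.6% ± 0.0287 in muscle.

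Ldhb led in brain (78.2% ± 0.798) and kidney (82.2% ± 1.6), and Ldha in liver (98.9% ± 1.09), spleen (95.4% ± 1.34) and muscle (87.3% ± 5.51). The muscle share had the widest spread of these, with Ldhb at 17.0%, 14.5% and 6.46% of the enzyme in the 3 WT libraries. From counts with no length scaling Ldhb was at 63.1% in brain, 68.7% in kidney and 6.49% in muscle. Pklr made up 89.0% ± 2.88 of pyruvate kinase in liver, 5.71% ± 0.720 in kidney, 3.65% ± 2.20 in spleen and at most 0.00677% in any WT brain or muscle library. In each of the 5 tissues, the leading gene of enolase, of lactate dehydrogenase and of pyruvate kinase was the same in heterozygous as in WT mice.

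**Figure D2:**
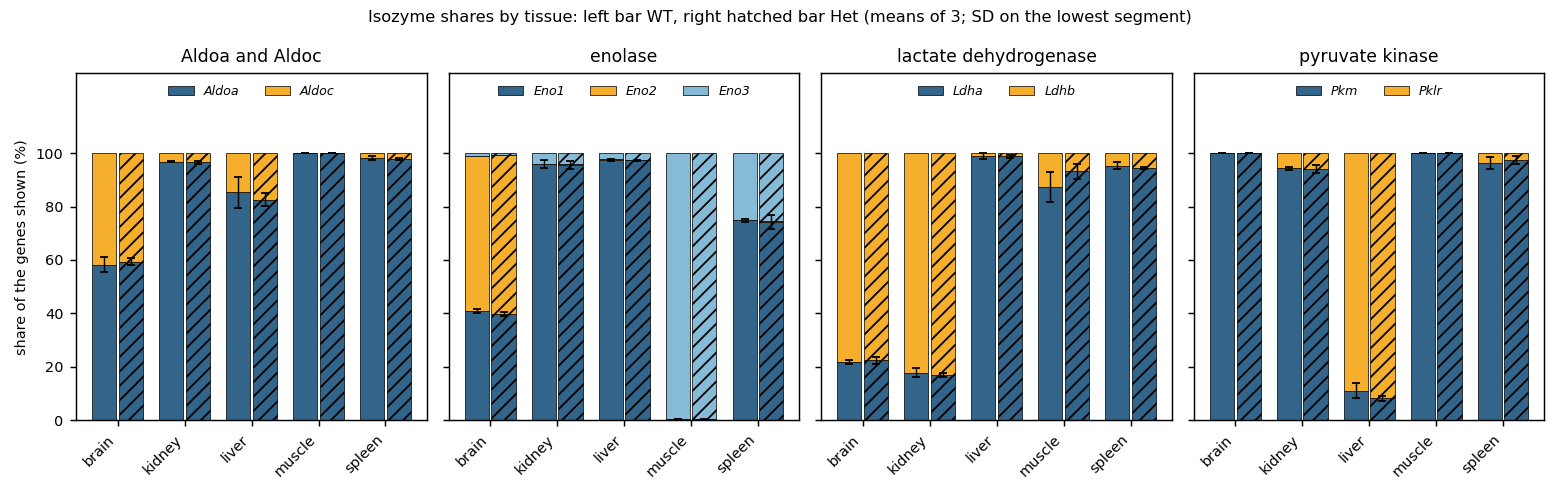
Share of each gene in the summed length-scaled level of the genes shown in its panel (vertical axis, percent), by tissue, as means of 3 libraries with the SD on the lowest segment; plain bars are WT and hatched bars heterozygous. Liver is the tissue in which Pklr exceeds Pkm, and brain and kidney are those in which Ldhb exceeds Ldha. Most paired bars differ little, and Ldhb in muscle is at 12.7% in WT and 6.79% in heterozygous mice.

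No member was called between genotypes in any tissue by edgeR's quasi-likelihood test at an adjusted p under 0.05. Pklr did not pass the filter on low counts in brain and muscle, so 8 members were tested in these tissues and 9 in the others. In brain 0 of 8 members were called, where 0.0157% of all genes were, and the log2 fold changes ran from -0.13 to 0.09. In kidney 0 of 9 were called (0.0211% of all genes), in liver 0 of 9 (0.0193%), in muscle 0 of 8 (0.0249%) and in spleen 0 of 9 (0.242%). At an unadjusted p under 0.05 there was 1 of 9 members in kidney, where 6.44% of all genes were under it, and 1 of 8 in muscle (6.45%). There were 0 in brain (2.96%), liver (4.56%) and spleen (3.52%), and with so few members these counts are not a result about them. DESeq2 called 1, in kidney (0.529% of all genes). The median log2 fold change of the members lay between -0.01 (muscle) and 0.06 (liver) over the 5 tissues, and that of all genes tested lay between -0.01 and 0.00. With so few of all genes called, a difference that missed the threshold does not show equal levels. Even Ctcf, whose libraries did not overlap between genotypes in 5 of 5 tissues, passed this edgeR threshold within a tissue only in brain. It did pass in the edgeR fit of all tissues together (log2 fold change -0.63, SE 0.06, adjusted p = 4e-07).

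The member at the unadjusted threshold in kidney was Eno2, at a low level. Its levels were 0.233, 0.215 and 0.211 in WT and 0.395, 0.324 and 0.391 in heterozygous kidney, so every heterozygous library was higher. The counts were 114 to 133 and 162 to 231 fragments. In edgeR the difference was 0.75 in log2 and did not pass the threshold (SE 0.18, adjusted p = 0.4), and DESeq2 gave an adjusted p of 0.0452. Of the genes tested in kidney, 11.4% had libraries that did not overlap between genotypes. The 5 neuron markers summed to 0.251 to 0.304 in WT and 0.154 to 0.388 in heterozygous kidney, ranges that overlap.

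In muscle the member was Ldhb, which was lower in the heterozygous mice but with overlap. Its levels were 335, 266 and 137 in WT and 129, 177 and 80.8 in heterozygous muscle (log2 fold change -0.93, SE 0.36, edgeR adjusted p = 0.687). With the library number as a replicate block it was called (log2 fold change -0.91, adjusted p = 0.0413; 0.735% of all genes). The share of Ldhb in lactate dehydrogenase was 12.7% ± 5.51 in WT and 6.79% ± 2.68 in heterozygous muscle (2-sided exact permutation p = 0.3, where 0.1 is the smallest that 3 against 3 libraries allow). Ldha in the same libraries was 1730 ± 219 and 1790 ± 136.

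Slow fibre genes moved with Ldhb. The summed level of Myh7, Tnni1, Tnnt1, Tnnc1 and Myl3, contractile genes of slow fibres, was 1210, 1440 and 506 in WT and 355, 720 and 230 in heterozygous muscle. The 6 libraries had the same order for this sum as for Ldhb, apart from the 2 highest, which changed places. Fast fibre markers were at 65500 to 73500 in WT and 59100 to 75200 in heterozygous muscle. Genes within that list differed. Myh2 was at 701, 561 and 229 in WT and at 372, 502 and 133 in heterozygous muscle. Myh4, at a far higher level, was at 14300, 14000 and 15900 and at 13800, 18000 and 17400. Adipocyte markers were higher in every heterozygous muscle library, with sums of 36.7 to 107 in WT and 191 to 503 in heterozygous mice. The part of fibre composition or fat in the Ldhb difference was not tested.

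Aldoa in liver was at 36.3, 37.7 and 36.7 in WT and at 39.2, 41.5 and 38.6 in heterozygous mice, without overlap, but the log2 fold change was 0.11 (SE 0.11, adjusted p = 1). In liver 8.97% of all genes tested did not overlap, and Aldoa was 1 of 9 members there. No member tested in brain (7.83% of all genes), muscle (12.2%) or spleen (6.65%) was free of overlap. In a fit of all tissues 0 of 9 members were called for an effect shared by tissues (0.194% of all genes), and 0 had an unadjusted p under 0.05 (5.91% of all genes). In the test of whether the genotype effect differed between tissues 0 of 9 were called (0.758% of all genes), and Eno2 alone had an unadjusted p under 0.05, as 6.66% of all genes did (edgeR adjusted p = 0.49).

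**Figure D3:**
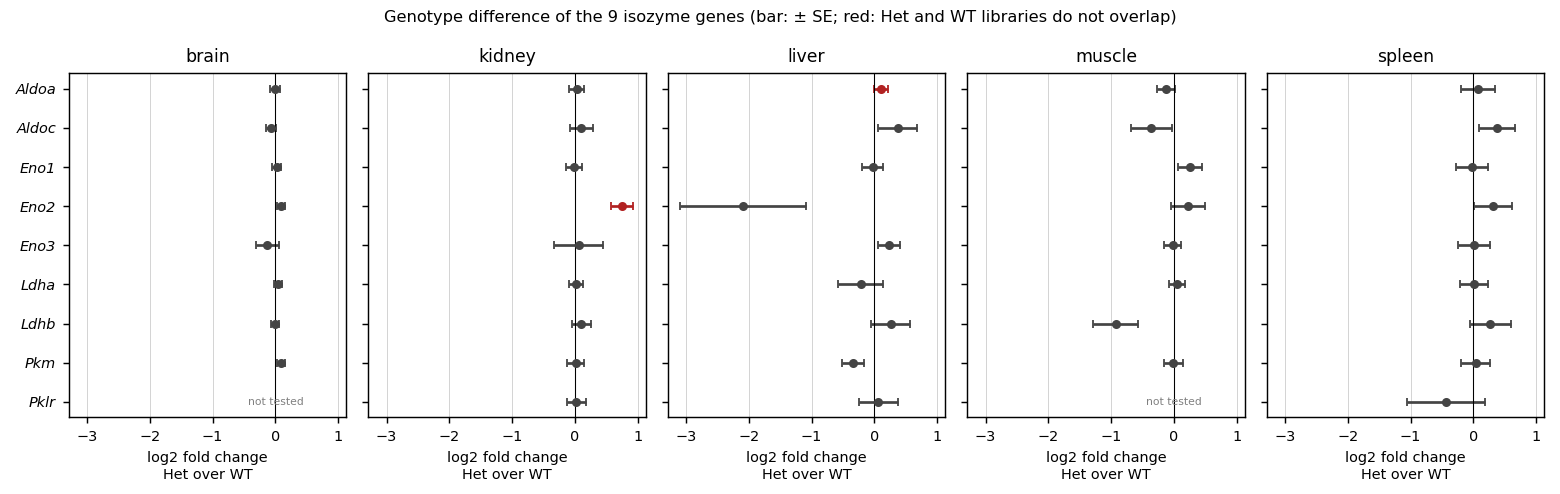
Log2 fold change of heterozygous over WT (horizontal axis, bars ± SE) for the 9 members in each tissue, from edgeR; red points are members whose 3 heterozygous and 3 WT libraries do not overlap, and Pklr was not tested in brain and muscle. Most points lie near 0, Eno2 in kidney is at 0.75, Ldhb in muscle at -0.93 and Eno2 in liver at -2.09 with an SE of 1.

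Several low or spread values stood beside markers of another cell type or tissue. For Eno2 in liver the difference was -2.09 in log2 (SE 1, adjusted p = 1), and 0.44 without WT replicate 3. The heterozygous liver libraries were at 0.123, 0.107 and 0.142, close to the other 2 WT libraries. The neuron markers summed to 10.2 in WT replicate 3 and to at most 3.70 in the other 5 liver libraries, and Snap25, a synaptic protein, was at 2.60 against at most 0.155. Their part in the Eno2 level was not tested.

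Eno3 in kidney was high in replicate 3 of both genotypes, at 8.95 and 9.83, against 4.22 to 4.49 in the other 4 libraries. The skeletal muscle markers summed to 34.6 and 43.0 in these 2 libraries and to 1.12 to 1.34 in the others, and Acta1, skeletal actin, was at 18.1 and 22.3 against at most 0.0750. Tnnc2 of the same list was at 0.0400 and 0. In muscle itself Tnnc2 was only at 5.44 to 9.48, against 34500 to 41600 for Acta1, so it is too low to follow in kidney. Eno3 was not called between genotypes (log2 fold change 0.06, SE 0.39), and over 12 other settings and left-out libraries its difference ran from -0.45 to 0.50. The part of muscle RNA in these levels was not tested.

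Pklr in spleen ranged widely, at 3.22, 6.70 and 2.91 in WT and 0.864, 4.87 and 3.73 in heterozygous mice (log2 fold change -0.44, SE 0.62, adjusted p = 1). The sum of 6 erythroid markers was 1550, 1660 and 317 in WT and 430, 1230 and 935 in heterozygous spleen. WT replicate 2 was highest in both measures, but the lowest erythroid sum and the lowest Pklr level were in different libraries. The part of red cell precursors in the Pklr level was not tested.

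**Figure D4:**
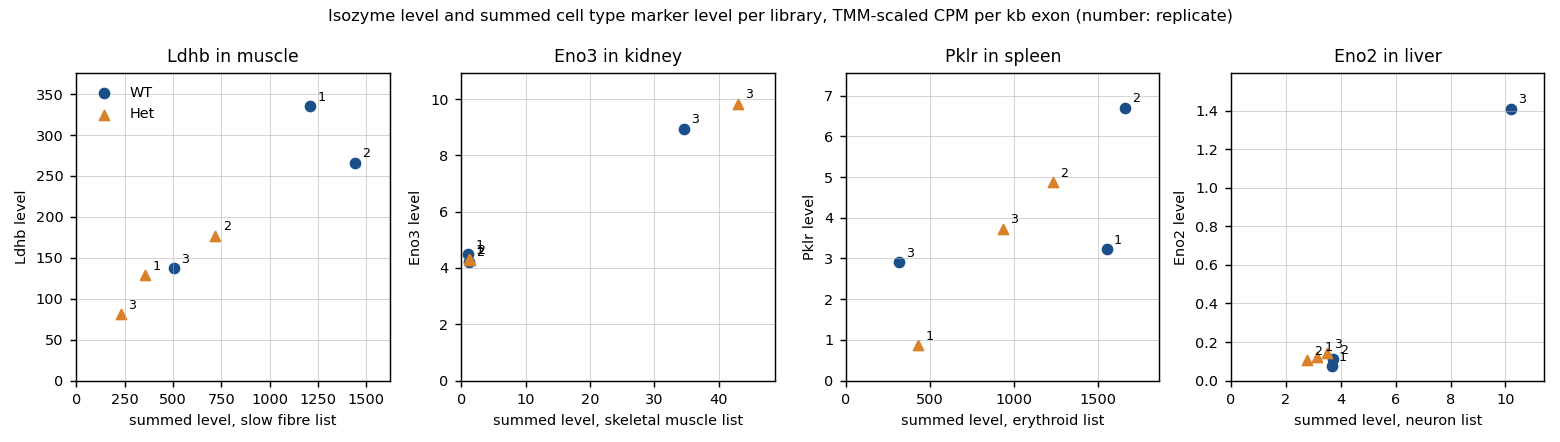
Level of 4 members (vertical axes) against the summed level of a marker list (horizontal axes), both in TMM-scaled CPM per kilobase of exon, per library and with replicate numbers; circles are WT and triangles heterozygous. Ldhb follows the slow fibre sum over the muscle libraries, and Eno3 in kidney and Eno2 in liver are highest in the libraries with the highest muscle or neuron markers.

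In liver, replicate 3 stood apart in several members in both genotypes. Ldha was at 219 in WT and 266 in heterozygous replicate 3, against 417 to 582 in the other 4 libraries. In the same libraries Pklr was highest, at 177 and 184 against 77.8 to 134, and Ldhb was highest, at 5.31 and 5.52 against 2.61 to 3.71. Mlxipl, which encodes the carbohydrate response factor ChREBP, was at 108 and 128 there and at 44.5 to 76.8 in the others. The genotypes overlapped for all of these genes, and the labels name no factor shared by the libraries numbered 3.

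Pklr in muscle was near the detection floor. It had 8, 14 and 1 fragments in the WT libraries and 0 in each of the 3 heterozygous ones, which allows up to 3 fragments per library. Kidney tubule markers in these libraries summed to 15, 116 and 14.1 in WT and to 0, 0.00671 and 7.39 in heterozygous muscle. The part of kidney RNA in the Pklr fragments was not tested.

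At other steps, too, the gene with the highest level differed between some tissues. Among hexokinases, which phosphorylate glucose, Hk1 led in WT brain (38.1 ± 2.08), kidney (17.0 ± 0.671) and spleen (15 ± 5.55) and Hk2 in muscle (66.8 ± 12.8). Pfkm, muscle phosphofructokinase, led in muscle (1990 ± 206), brain (123 ± 9.57) and kidney (22.0 ± 2.66), and Pfkl, the liver form, in liver (14.0 ± 2.01) and spleen (11.9 ± 1.93). For the steps from triose phosphate on, genes of different enzymes were ranked together. Gapdh led in brain, kidney and liver, at 303 ± 20.5, 362 ± 53.4 and 392 ± 44.7. Pgam2, the muscle phosphoglycerate mutase, led in muscle (5490 ± 496), and Bpgm, which makes 2,3-bisphosphoglycerate in red cells, led in spleen at 54.4 to 299. Pgam1, of the same step as Pgam2, had WT means of 63.1, 64.0 and 4.80 in brain, kidney and muscle. Those of Pgam2 were 4.80, 64.5 and 5490. Pgam1 was above Pgam2 in liver (44.5 and 0.692) and spleen (11.3 and 2.73). Of the glucose transporters, Slc2a1 led in brain (15.1 ± 2.31) and spleen (6.13 ± 0.611), Slc2a2 in kidney (17.1 ± 2.72) and liver (74.8 ± 13.3), and the insulin-responsive Slc2a4 in muscle (226 ± 1.80). Of 8 regulators of glycolytic genes, Epas1, a hypoxia-inducible factor, led in brain (20.3 ± 1.34), kidney (20.3 ± 0.564) and muscle (40.4 ± 1.84), Mlxipl in liver (69.4 ± 34.2) and Klf1, an erythroid factor, in spleen (64.1 ± 41.4).

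Between genotypes, none of 36 other pathway genes or 8 regulators was called in any tissue by edgeR or DESeq2. The pathway genes tested numbered 35 in kidney, 33 in muscle and 34 in each of the other tissues. Of them, 2 of 35 in kidney had an unadjusted p under 0.05, against 6.44% of all genes, 5 of 33 did in muscle, against 6.45%, and 0 of 34 did in each of brain, liver and spleen. Of the regulators, 1 of 8 did in kidney and 0 did elsewhere. No test of these counts was made. The median log2 fold change of the pathway genes lay between -0.06 (liver) and 0.02 (brain). Ppargc1a, a coactivator of oxidative metabolism, was at 21.3 in WT muscle replicate 2 and at 3.90 to 4.54 in the other 5 muscle libraries. In kidney Pdk4, an inhibitor of pyruvate dehydrogenase, had a log2 fold change of 0.75 (SE 0.51) and Hk2 of -0.69 (SE 0.42). In the other tissues, genes among those with the widest log2 fold changes at 1 CPM or more were Slc2a4 (0.20) in brain, Pfkfb2 (0.49) and Gapdhs (0.48) in liver, and Hk3 (0.53) and Pcx (-0.50) in spleen, none of which was called.

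Across the 30 libraries, the genes whose pattern was most like that of each member were as follows. Eno3 was most like the muscle genes Tmod4, Mylpf and Itgb1bp2 (Pearson r = 0.998, 0.996 and 0.996 on log2 CPM). Eno2 was most like Slc4a10, Cnih2 and Kif5c (0.995, 0.993 and 0.992), genes active in neurons, and Aldoc like Dlg3, Rundc3a and Klhl2 (0.987, 0.985 and 0.981). Pklr was most like Haao, Ormdl2 and Kynu (0.991, 0.986 and 0.985), of which Haao and Kynu act in tryptophan breakdown. Aldoa was most like Synpo2, Slc25a12 and Rab28 (0.992, 0.990 and 0.990) and Pkm like Sms, Prmt5 and Fkbp3 (0.983, 0.981 and 0.978). Ldha was most like Eif2b1, Psmd6 and Sar1b (0.994, 0.988 and 0.985), and Ldhb like Plxdc2, Vwa1 and Aktip (0.988, 0.979 and 0.979). Eno1 had the weakest likeness, to Cox8a, Tmem106c and Nagk (0.974, 0.964 and 0.964). The 30 points come from 5 tissues, so these coefficients describe tissue patterns and carry no test.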

How the data were processed

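Per the file headers, the deposited values were whole-number fragment counts per gene and library from featureCounts 1.5.0-p3 with the Ensembl 86 annotation of GRCm38. STAR, FastQC and DESeq2 are named in the submitters' processing notes, without versions. Per the labels' protocols, RNA was extracted with TRIzol and DNase treated. The members and all gene lists were chosen with earlier results of these data known, and the genes named were the members and, per tissue, the 2 pathway genes with the widest fold change among those with at least 1 CPM. Some genes of these pathways are not reported here. Counts were tested with edgeR 4.0.16 (quasi-likelihood, TMM, filterByExpr, Benjamini-Hochberg adjustment over all genes tested) in R 4.3.3. Genotypes were compared within each tissue, and tissues within WT. DESeq2 1.42.0, other scalings, no filter on low counts, a joint fit of all libraries, a replicate block and leaving out each library were the alternatives. The edgeR step was tested on simulated counts. Shares used exonic length, and the length of a main transcript was an alternative added after the data were seen. Same-numbered WT and heterozygous libraries deviated together in brain (r = 0.341, 0.563 and 0.698) and kidney (r = 0.315, 0.199 and 0.141). In liver and muscle r was above 0 too, with lowest values of 0.0326 and 0.0706, while in spleen it ran from -0.579 to 0.424. The main genotype tests did not pair same-numbered libraries in any tissue. Pairing entered only through the replicate block, an alternative, which called none of the members in brain or kidney and called Ldhb in muscle. Every pair of replicates differed by more than counting noise (chi-square per degree of freedom 15.4 to 640.0 over 30 pairs), and a count of 0 allows up to 3 fragments.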

Additional observations from a re-analysis of the deposited data

How the results depend on the processing

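Of the counts of members called and of leading isozymes, 193 of the recomputed values stayed within 1.5 times the value reported, and 2 did not. DESeq2 called 1 member in kidney (Eno2) and the replicate block called 1 in muscle (Ldhb), against 0 by edgeR. The block called 0 members in brain, kidney, liver and spleen. Same-numbered WT and heterozygous libraries had r of 0.0326, 0.1 and 0.278 in liver and of 0.0706, 0.374 and 0.462 in muscle. In spleen r was -0.579, -0.159 and 0.424. The labels do not tie the number to a mouse, so it may be only a name. Leaving out each library gave 0 members called between genotypes in every tissue. Among WT tissues it gave 6 to 7 for kidney and liver, 7 to 8 for kidney and spleen, 8 to 9 for liver and muscle and 6 to 8 for liver and spleen, and left the other pairs as reported. Over all genes the calls between genotypes varied: edgeR gave 3, 4, 3, 4 and 45 in brain, kidney, liver, muscle and spleen, DESeq2 29, 157, 70, 182 and 192, the joint fit 1, 13, 37, 229 and 250, the block 22, 21, 7, 118 and 0, and no filter 6, 45, 16, 66 and 74. Leaving out a library gave 0 to 1, 3 to 56, 1 to 17, 1 to 2 and 0 to 29. Directions turned for differences close to 0 or carried by single libraries. With total counts, log2 fold changes were 0.89 for Eno1 and 0.95 for Eno3 (brain over liver), -1.01 for Ldhb (liver over spleen) and 0.49 for Pklr (brain over muscle). Between genotypes, the sign was opposite to that reported in 16 of 96 recomputed member values in brain, 21 of 108 in kidney, 7 of 107 in liver, 10 of 96 in muscle and 26 of 108 in spleen. These included Eno3 in kidney (-0.45 to 0.50), Pklr in liver (-0.23 to 0.35) and 8 of 12 for Aldoa in brain (-0.07 to 0.06). Eno2 in liver was 0.44 without WT replicate 3, and Pklr in spleen 0.02 without WT replicate 2 and 0.01 without heterozygous replicate 1. Among WT tissues, Aldoc (kidney over liver) was -0.20 without liver replicate 2, Eno1 (kidney over liver) -0.01 without liver replicate 1 and Ldhb (brain over muscle) -0.22 without muscle replicate 3. Ldhb (liver over spleen) was -0.25 without liver replicate 3 and -0.15 without spleen replicate 2. Eno2 was -1.33 (liver over spleen) without liver replicate 3, and 0.21 (kidney over spleen) without spleen replicate 3 and 0.02 with the replicate block. The causes of these changes were not tested. Leaving out other libraries moved the same differences as far as -2.61 (Eno2 in liver between genotypes, without WT replicate 1), -0.90 (Pklr in spleen, without heterozygous replicate 2), 0.41 (Aldoc, kidney over liver), 1.67 and -0.27 (Eno2, liver over spleen and kidney over spleen), and 0.35 and 0.47 (Ldhb, brain over muscle and liver over spleen). Depth limits Pklr in brain and muscle and Eno2 outside brain.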
